A study of Mus musculus with 16 samples.

Results

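Loxoribine and CpG DNA are agonists of TLR7 and TLR9, the endosomal receptors for RNA and DNA, and their effect on gene expression is described here in dendritic cells grown from ovariectomized, estradiol-repleted mice that the source labels give the truncated estrogen receptor called ERα short. The members are the 4 libraries, of 16 in the series, that the source labels place in the ERKO OVX arm: 2 agonist libraries (library labels Erko-cp6-lox1 and Erko-cp6-lox2) and 2 vehicle libraries (Erko-Ctl1 and Erko-Ctl2). They were taken by these labels alone, and every gene row of the table was used. The mice were NZM2410, an inbred strain prone to lupus, ovariectomized at 4 to 8 weeks of age and given a 0.25 mg, 90-day pellet of 17β-estradiol. Marrow was grown for 7 days with GM-CSF at 20 ng/ml and IL-4 at 10 ng/ml, and cells received vehicle or loxoribine plus CpG at 1 μg/ml for 24 h. For loxoribine the label reads 200 μmol/ml, and nothing here allows a check of that unit. RNA-seq was paired-end. The design text mentions CD11c-high cells and calls ERα short a mutant of the AF-1 domain.

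The labels disagree about the allele. The genotype labels give the agonist libraries Esr1(tm1Ksk), described as ERα short, and the vehicle libraries Esr1(tm4.2Ksk), described as having no estrogen receptor activity, although the source labels and library names put all 4 in 1 arm. If the genotype labels were right, agonist and allele could not be told apart in this comparison. The same 2 allele names divide the vehicle and agonist libraries of KO, the unoperated arm that the source labels call ERα short. Both treatments of Ex3a OVX, the arm that the source labels call null, carry the genotype label Esr1(tm1Ksk). The last arm is WT, unoperated, with the intact receptor. All arms are the same strain and had the same culture, agonists and time, and surgery and pellet were common to ERKO OVX and Ex3a OVX. The labels also say that only one read file of agonist library 2 survives in the archive, and they speak of triplicates where 2 libraries per group were analysed. Whether the 2 libraries came from separate mice or cultures is not stated.

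TLR7 and TLR9 sit in endosomes, where UNC93B1 brings them, and signal through the adaptor MyD88 and IRAK kinases to TRAF6. From there IκB kinase releases NF-kB, which switches on cytokine genes and its own inhibitors, while IRF7 and IRF5 carry the signal to interferon genes. GM-CSF with IL-4 turns marrow into inflammatory dendritic cells and macrophage-like cells, which answer these agonists mainly through NF-kB. Estrogen receptor α is known to modulate TLR responses of dendritic cells, and ERα short lacks the first of its activation domains.

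Estimated depth was 24.1 to 25.4 M fragments (M, mega) in the 4 libraries and 39.5 to 46.8 M in the unoperated arms, from the steps between low values. Ex3a OVX had 24.7 and 25.3 M with vehicle and 19.0 and 19.5 M with agonist. The 2 libraries of each ERKO OVX group differed by about counting noise (variance over counting variance 1.05 and 1.14 in genes with 5000 or more fragments, against 2.96 to 8.65 in unoperated pairs), so the mean of each pair entered as 1 sample. Over all classes of fragment number this ratio was 0.753 to 1.14 in ERKO OVX and 0.976 to 8.65 in unoperated pairs, so the ranges overlap. Ex3a OVX pairs, also averaged, had 1.545 with vehicle and 1.13 with agonist in genes with 5000 or more fragments. The correlation of log values was 0.997 to 0.999 within a group and 0.991 to 0.992 between treatments. Esr1 itself was low, 1.02 and 0.982 FPKM in the vehicle libraries and 1.11 and 1.16 in the agonist libraries (log2 fold change 0.09 ± 0.11, adjusted p = 0.533), and reads summed per gene do not tell its alleles apart. The 13 dendritic cell markers were the most abundant of 12 marker lists, with summed levels of 11570 and 11500 FPKM with vehicle and 10270 and 10250 with agonist, and none of the 13 was at 0 in all 4 libraries. The list includes the MHC class II presentation genes H2-Aa, H2-Ab1 and Cd74, so its sum does not by itself identify the cells. Its member Zbtb46 stood at 4.28 and 4.20 FPKM with vehicle. Vehicle means of Zbtb46 were 22.1 in KO, 13.4 in WT and 2.76 in Ex3a OVX. Of the 16 neutrophil precursor markers, 15 were in the table, summing to 2472 and 2475 FPKM with vehicle and 2478 and 2460 with agonist. Mean sums with vehicle and agonist were 204 and 302 in KO and 1011 and 1759 in Ex3a OVX. Among the 15 Retnlg was at 0. Lcn2 alone held 1085 and 1090 FPKM of the sum with vehicle and 1261 and 1251 with agonist. Of 13 tested 0 rose and 5 fell (38.5%, beside 19.2% of all genes tested, median -0.27). Basophil and mast cell markers summed to 125 and 123 FPKM and then 96.8 and 92.8, and macrophage markers to 1305 in both vehicle libraries and 1149 and 1142 with agonist. In bulk RNA fewer cells of a type and less RNA per cell cannot be told apart. The part of these cells in the results below was not tested.

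With agonist, 2081 genes rose and 2175 fell of 11346 tested (limma on log2 of FPKM + 1, adjusted p under 0.05), 18.3% and 19.2% of all genes tested, and most moved little. On this scale 31 of the risers more than doubled (log2 fold change over 1) and no gene fell by as much. Adding 1 FPKM understates the change of low genes, and with 0.1 FPKM added 59 rises and 36 falls were beyond 2-fold. A gene list with shares near 18.3% and 19.2% is at the background, and its counts say nothing particular about it. A test for changes beyond 1.5-fold called 29 rises, 0.256% of all genes tested, and 1 fall, 0.00881%. The largest rises by log2 fold change were inflammatory: Il1a, Cxcl2, Csf3, Cxcl1, Ccl3, Il6, Il12a and Tnf. Of these, Cxcl1 and Tnf were not called by the test beyond 1.5-fold. Nor were Il1b, Ccl4, Ptgs2, Fabp3 and Hivep3, large rises described below. The 1 fall beyond 1.5-fold was Slc37a2, a sugar phosphate transporter of the endoplasmic reticulum, from 59.6 and 60.5 FPKM to 31.0 and 29.2 (-0.97 ± 0.05, adjusted p = 1.96e-06). Scaling every library to the same sum of FPKM shifted the median gene upward by 0.07 and turned the split into 3225 higher and 1353 lower, 70.5% higher against 48.9% as reported. Whether a change of that size was called therefore depended on the scaling. Without agonist library 1 there were 4 falls beyond 1.5-fold. In 8555 genes, 75.4% of those tested, the vehicle and agonist libraries did not overlap, so groups that do not overlap were the usual case here. All errors below are standard errors from this fit, on the log2 scale. Since each ovariectomized pair was averaged, errors and p-values rest on the spread between the paired libraries of KO and WT, which may be technical.

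**Figure D1:**
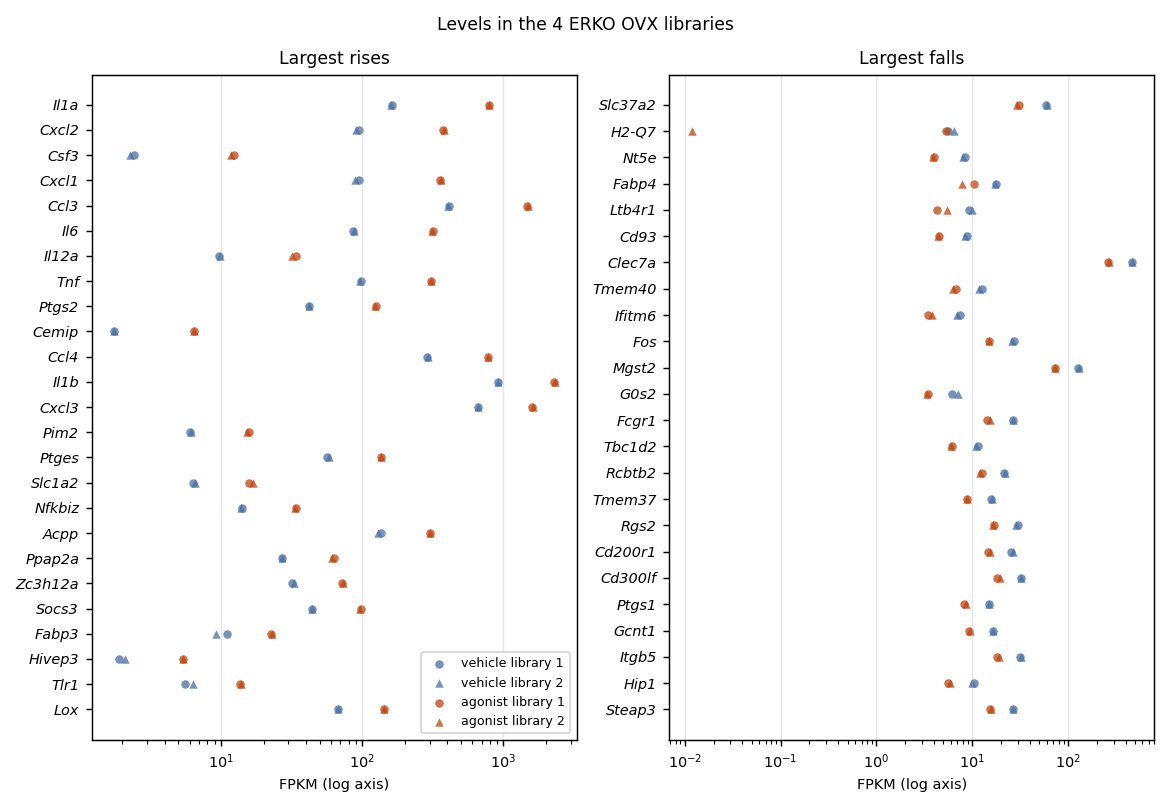
FPKM on a log axis in the 4 ERKO OVX libraries for the largest rises and falls described in the text, with circles for library 1 and triangles for library 2. The 2 libraries of a group nearly coincide for most genes, as for Il6 (86.5 and 87.2 with vehicle, 319.6 and 312 with agonist), while the fall of H2-Q7 rests on agonist library 2.

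Of 23 inflammatory cytokines tested 13 rose and 1 fell, with a median log2 fold change of 0.38 beside 0.0038 over all genes tested. Il1a, which encodes interleukin 1α, an alarm cytokine, stood at 163 and 159 FPKM with vehicle and 791 and 795 with agonist (2.29 ± 0.13, adjusted p = 6.16e-05), the largest rise of any named gene on this scale. Il6, the fever and B cell cytokine, went from 86.5 and 87.2 FPKM to 319.6 and 312 (1.85 ± 0.07, adjusted p = 7.58e-07). Tnf went from 97.6 and 95.8 FPKM to 307 and 307 (1.66 ± 0.29, adjusted p = 0.0129). In all 3 genes both agonist libraries lay at more than 3 times the vehicle level, and the libraries of a group nearly coincided. Il1b, already the most abundant cytokine of the list with vehicle, went from 912 and 908 FPKM to 2293 and 2305 (1.34 ± 0.21, adjusted p = 0.00749). Csf3, which encodes the neutrophil growth factor G-CSF, was scarce and went from 2.43 and 2.27 FPKM to 12.3 and 11.8 (1.96 ± 0.17, adjusted p = 4.9e-05). Il12a, the p35 chain of interleukin 12, went from 9.74 and 9.79 FPKM to 33.9 and 32.0 (1.66 ± 0.10, adjusted p = 5.58e-06).

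The other cytokine rises were smaller or at low levels. Il27 (0.83 ± 0.09), Lif (0.49 ± 0.07) and Il15 (0.38 ± 0.05) passed the test. So did Ifnb1, which encodes interferon β, at 0.33 and 0.128 FPKM with vehicle and only 1.01 and 0.989 with agonist (0.70 ± 0.10, adjusted p = 0.000588). Il10, the inhibitory cytokine, went from 0.77 and 0.749 FPKM to 1.46 and 1.60 (0.53 ± 0.13), a call that ended with 0.1 FPKM added in place of 1 (adjusted p = 0.143). Csf1, the macrophage growth factor, was the one member that fell, from 179.7 and 177 FPKM to 135 and 134 (-0.41 ± 0.05, adjusted p = 0.000251). The interleukin 1 receptor antagonist Il1rn, at 469.9 and 477 and then 462 and 459 FPKM, did not pass (-0.04 ± 0.04, adjusted p = 0.489).

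The interleukin 12 family did not move together. While Il12a rose, Il12b, the shared p40 chain of interleukins 12 and 23, went only from 196 and 196 FPKM to 262 and 261 (0.41 ± 0.05, adjusted p = 0.000456). Ebi3, the partner chain of interleukins 27 and 35, stood at 226 and 226 and then 209 and 211 FPKM and did not pass (-0.10 ± 0.05, adjusted p = 0.112), though it passed as a fall without KO agonist library 1 or 2 (adjusted p = 0.0305 and 0.0304). Il23a, the p19 chain, stood at 4.21 and 5.07 and then 3.92 and 4.27 FPKM and did not pass (-0.15 ± 0.13, adjusted p = 0.407). With vehicle Il12a, the chain that rose most, was scarcer per length than Il12b and Ebi3, but Il23a, which did not pass, was scarcer still.

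Among CXC chemokines 5 of 11 rose and 1 fell (median 0.17), and the risers were led by the 3 neutrophil attractants Cxcl1, Cxcl2 and Cxcl3. Cxcl2 went from 95.4 and 90.5 FPKM to 372 and 380.1 (2.005 ± 0.12, adjusted p = 5.63e-05), Cxcl1 from 94.99 and 88.6 FPKM to 357 and 361 (1.96 ± 0.23, adjusted p = 0.00284) and Cxcl3 from 664 and 657 FPKM to 1592 and 1616 (1.28 ± 0.05, adjusted p = 1.02e-06). Cxcl5, of the same class, also rose (0.67 ± 0.07), as did Cxcl10, an interferon-inducible attractant of T cells, from 42.0 and 35.8 FPKM to 70.2 and 73.0 (0.86 ± 0.19, adjusted p = 0.0134). Cxcl9, another CXCR3 ligand, was scarce and did not pass, at 0.729 and 0.695 and then 0.564 and 0.754 FPKM. Cxcl14 fell (-0.36 ± 0.07, adjusted p = 0.00416).

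CC chemokines split: 4 of 12 rose and 4 fell (median -0.06), or 4 and 2 at equal sums of FPKM. Ccl3, which draws monocytes and lymphocytes, went from 409 and 403 FPKM to 1474 and 1488 (1.86 ± 0.08, adjusted p = 2.5e-06), and its neighbour Ccl4 went from 288 and 292 FPKM to 778 and 776 (1.42 ± 0.15, adjusted p = 0.000977). The monocyte attractants Ccl2 (0.60 ± 0.04, adjusted p = 1.37e-05) and Ccl7 (0.79 ± 0.06, adjusted p = 1.84e-05) rose less. The 4 that fell were Ccl6 (-0.28 ± 0.04), Ccl24 (-0.19 ± 0.03), Ccl9 (-0.16 ± 0.04) and Ccl17, a T cell attractant (-0.16 ± 0.05, adjusted p = 0.0215). At equal sums the calls on Ccl9 and Ccl17 ended, and with the transcript length trend removed that on Ccl24 ended and the sign of Ccl17 turned (0.011). The 2 most abundant chemokines, Ccl5 at 8102 and 8067 FPKM and Ccl22 at 6497 and 6504 FPKM with vehicle, did not pass the test (-0.05 ± 0.06 and -0.06 ± 0.05).

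Chemokine receptors went the other way, 1 of 8 higher and 4 lower. Ccr1, a receptor for Ccl3, went from 165 and 165 FPKM to 106 and 104 (-0.64 ± 0.04, adjusted p = 6.23e-06). It was lower in the libraries where its ligand was higher. Ccr2 (-0.63 ± 0.12) and Cxcr4 (-0.18 ± 0.04, not called at equal sums) also fell. The decoy-like Ccrl2 rose (0.80 ± 0.09, adjusted p = 0.000275), and Ccr7, which guides mature dendritic cells to lymph nodes, did not pass (from 508 and 503 FPKM to 471 and 472, -0.10 ± 0.04, adjusted p = 0.107).

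Some promoters of genes that rose are shown with the letters of an NF-kB site, since NF-kB stands at the end of the pathway described above. The window ran from 250 bases before to 50 after the start site (RefSeq, GRCm38.p6, the mm10 build), and the letters searched on both strands were GGGA or GGGG, then any 2 bases, then TTCC, whose matches can overlap. Of all 27025 genes with a window 3.26% held a match. So did 2 of 64 genes of the respiratory chain and ATP synthase (3.125%) and 2 of 56 ribosomal protein genes (3.57%). Of the 22 genes with a window among the 29 rises beyond 1.5-fold, 3 held one (13.6%), namely Il6, Cxcl2 and Cxcl3, and of 18 NF-kB feedback genes with a window 6 did (33.3%). The stretches shown are those of the first 3 and of the 4 feedback genes with a match whose values are given below. The capitals mark the match with 30 bases on each side, read 5′ to 3′ along the gene's strand.
Il6: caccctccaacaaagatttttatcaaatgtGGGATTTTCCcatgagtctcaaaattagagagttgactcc
Cxcl2: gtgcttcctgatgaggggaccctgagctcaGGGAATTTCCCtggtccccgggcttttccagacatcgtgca
Cxcl3: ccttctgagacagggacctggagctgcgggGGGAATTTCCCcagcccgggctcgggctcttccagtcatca
Tnfaip3: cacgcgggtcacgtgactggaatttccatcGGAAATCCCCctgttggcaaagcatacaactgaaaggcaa
Nfkbia: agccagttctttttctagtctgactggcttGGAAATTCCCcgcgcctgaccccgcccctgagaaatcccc
Tnip1: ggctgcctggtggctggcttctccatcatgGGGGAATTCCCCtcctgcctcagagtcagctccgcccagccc
Nfkbie: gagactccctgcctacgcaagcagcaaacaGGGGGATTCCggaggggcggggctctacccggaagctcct
The match begins 44 bases before the start of Il6 (chr5:30013040-30013109, plus strand), 97 before that of Cxcl2 (chr5:90903772-90903842, plus) and 73 before that of Cxcl3 (chr5:90785998-90786068, plus). It begins 12 bases before Tnfaip3 (chr10:19015383-19015452, minus), 29 before Nfkbia (chr12:55492637-55492706, minus), 58 before Tnip1 (chr11:54962957-54963028, minus) and 106 before Nfkbie (chr17:45555564-45555633, plus). Cxcl2 and Cxcl3 share the same 11 letters, GGGAATTTCCC, and differ around them. Letters of other sites were searched in the same windows. Those of an AP-1 site (TGA, any base, TCA) were in 2 of the 22 genes (9.09%) and 4 of the 18 (22.2%), beside 8.97% of all. Those of the interferon-stimulated response element (GAAA, any 2 bases, GAAA) were in 1 and 0, beside 3.99% of all. A match describes the letters only. The feedback genes were listed for their part in the NF-kB pathway, so their share of matches is no result of the agonist response.

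The machinery between receptor and NF-kB rose by small amounts. Of TLR adaptors and kinases 15 of 22 were higher and 0 lower (median 0.23). The largest was Irak3, an inhibitory kinase of the pathway, from 55.0 and 54.9 FPKM to 90.9 and 89.2 (0.70 ± 0.06, adjusted p = 4.48e-05), followed by Ticam2 (0.62 ± 0.05), Map3k8 (0.57 ± 0.05), the TBK1 partner Tank (0.41 ± 0.03) and Ikbke (0.38 ± 0.03). Myd88 itself stood at 67.1 and 67.7 and then 68.3 and 67.3 FPKM (0.01 ± 0.05, adjusted p = 0.897), and Irak1 (-0.10 ± 0.04) and Irak4 (-0.04 ± 0.05) did not pass either. Of the NF-kB subunits 4 of 5 rose: Nfkb1 from 62.5 and 61.5 FPKM to 87.8 and 86.3 (0.48 ± 0.03, adjusted p = 9.19e-06), Nfkb2 (0.38 ± 0.04), Rela (0.21 ± 0.04) and Rel (0.23 ± 0.04, not called with the length trend removed, adjusted p = 0.0545), but Relb did not pass (-0.03 ± 0.04, adjusted p = 0.633).

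Feedback genes of NF-kB were the list with the highest share of rises, 17 of 21, with 1 fall (median 0.28). Nfkbiz, an atypical IκB needed for a second wave of genes such as Il6, went from 14.2 and 13.9 FPKM to 33.7 and 33.5 (1.202 ± 0.05, adjusted p = 1.53e-06). Zc3h12a, the RNase that destroys Il6 mRNA, went from 32.0 and 33.0 FPKM to 71.6 and 73.2 (1.13 ± 0.04, adjusted p = 7.32e-07), and its relative Zc3h12c went from 11.04 and 11.5 FPKM to 21.5 and 21.8 (0.89 ± 0.04, adjusted p = 1.96e-06). These 3 were the members called beyond 1.5-fold. The classic brakes moved less: Tnfaip3, the ubiquitin-editing enzyme A20, from 56.4 and 56.4 FPKM to 83.4 and 84.8 (0.57 ± 0.05, adjusted p = 4.61e-05), Nfkbia, which encodes IκBα, from 226 and 219 FPKM to 315 and 318 (0.51 ± 0.04, adjusted p = 2.38e-05), Tnip1 (0.43 ± 0.03), Traf1 (0.46 ± 0.05) and Nfkbie (0.23 ± 0.06, not called with no filter, adjusted p = 0.0542). The one fall was Zfp36l2, an mRNA decay factor (-0.22 ± 0.08, adjusted p = 0.0419). That call ended at equal sums, without agonist library 1 (adjusted p = 0.0562), without vehicle library 2 (0.0503) and without WT vehicle library 1 or 2 (0.0629 and 0.0628).

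The receptors themselves were lower. Of endosomal TLRs, their chaperones and processing enzymes 2 of 17 were higher and 11 lower (median -0.15), or 4 and 6 at equal sums. Tlr7, the loxoribine receptor, went from 24.4 and 23.2 FPKM to 18.3 and 18.3 (-0.36 ± 0.05, adjusted p = 0.00086), Tlr9, the CpG receptor, from 7.13 and 7.51 FPKM to 5.86 and 6.07 (-0.26 ± 0.05, adjusted p = 0.00329) and Tlr8 from 8.17 and 8.48 FPKM to 5.46 and 6.08 (-0.46 ± 0.07, adjusted p = 0.000828). The chaperones Cnpy3 (-0.26 ± 0.04) and Unc93b1 (-0.17 ± 0.04, not called at equal sums) fell too. The 2 that rose were Slc15a3, an endolysosomal peptide transporter, from 497 and 496 FPKM to 634 and 637 (0.35 ± 0.03, adjusted p = 2.63e-05), and Cd14, a co-receptor, from 1449 and 1425 FPKM to 1745 and 1736 (0.28 ± 0.03, adjusted p = 0.000105). Tlr1, a surface receptor outside this list, rose from 5.58 and 6.34 FPKM to 13.6 and 13.9 (1.08 ± 0.08, adjusted p = 1.45e-05).

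Signs of dendritic cell maturation were mixed. Of costimulatory and inhibitory ligands 5 of 12 rose and 2 fell (median 0.09). Cd40, which receives T cell help, went from 148 and 148 FPKM to 241 and 244 (0.70 ± 0.06, adjusted p = 3.62e-05), Icosl from 9.68 and 9.87 FPKM to 19.4 and 19.3 (0.92 ± 0.04, adjusted p = 1.96e-06), and Cd274, which encodes the inhibitory PD-L1, from 122 and 124 FPKM to 194 and 192 (0.65 ± 0.03, adjusted p = 3.41e-06). The costimulatory B7 genes Cd80 (from 40.9 and 41.1 FPKM to 44.4 and 41.1, 0.06 ± 0.04, adjusted p = 0.27) and Cd86 (from 35.9 and 33.9 FPKM to 32.6 and 32.5, -0.10 ± 0.04, adjusted p = 0.102) did not pass. Without agonist library 2 Cd80 passed as a rise (0.11, adjusted p = 0.0487), and without vehicle library 2 Cd86 passed as a fall (-0.14, adjusted p = 0.0326). Pdcd1lg2, which encodes PD-L2, fell (-0.49 ± 0.04, adjusted p = 4.9e-05). Among TNF superfamily ligands 2 of 13 rose, Tnf and Lta (0.61 ± 0.12, not called with 0.1 FPKM added), and 6 fell. The fallers included the B cell survival factors Tnfsf13, APRIL, from 18.8 and 18.5 FPKM to 11.04 and 10.5 (-0.74 ± 0.06, adjusted p = 2.62e-05), and Tnfsf13b, BAFF, from 5.21 and 5.27 FPKM to 3.0 and 3.29 (-0.59 ± 0.07, adjusted p = 0.0003), and Cd70 (-0.43 ± 0.08, adjusted p = 0.00205), whose value was -0.22 without agonist library 1 and -0.68 without agonist library 2.

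Antigen presentation genes were lower by small amounts. No MHC class II presentation gene rose and 8 of 12 fell (median -0.16), for example H2-Aa, from 2198 and 2183 FPKM to 1867 and 1865 (-0.23 ± 0.03, adjusted p = 0.000403), while the master regulator Ciita did not pass (-0.06 ± 0.04, adjusted p = 0.255). Scaled to equal sums, 5 of the 12 fell. Of MHC class I presentation 2 of 22 rose and 8 fell. The fallers included all 3 immunoproteasome subunits, Psmb8 (-0.35 ± 0.03, adjusted p = 2.33e-05), Psmb9 (-0.34 ± 0.04) and Psmb10 (-0.33 ± 0.06), whereas B2m (-0.05 ± 0.03), H2-K1 (-0.03 ± 0.03) and Tap1 (-0.07 ± 0.04) did not pass. H2-Q7, which shares reads with near-identical copies, was at 5.54 and 6.46 FPKM with vehicle and 5.30 and 0.0118 with agonist (-0.94 ± 0.12, adjusted p = 0.000356). Without agonist library 2 its value was -0.15 (adjusted p = 0.332), and without agonist library 1 it was -2.79, so the call rests on 1 library.

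Of interferon-stimulated antiviral genes 6 of 32 rose (18.8%, beside 18.3% of all genes tested) and 9 fell (28.1% beside 19.2%, median -0.05), a balance that turned to 9 and 4 with libraries scaled to equal sums. Rsad2, the antiviral viperin, went from 75.2 and 74.3 FPKM to 113 and 111 (0.57 ± 0.08, adjusted p = 0.000878), with Parp14 (0.47 ± 0.04), Cmpk2 (0.45 ± 0.09) and Mx1 (0.33 ± 0.08). Isg20 (-0.57 ± 0.08, adjusted p = 0.000686), Samhd1 (-0.50 ± 0.03, adjusted p = 5.58e-06) and Oas3 (-0.40 ± 0.04) fell. Of the interferon-induced GTPases 5 of 14 rose (3 with log values centred on each library's median) and none fell, led by Gbp5 (0.42 ± 0.06, adjusted p = 0.000518) and Gbp2 (0.38 ± 0.06). Of 8 interferon regulatory factors Irf1 rose, from 64.9 and 66.2 FPKM to 88.1 and 90.7 (0.44 ± 0.05, adjusted p = 0.000102), Irf7 (-0.24 ± 0.03) and Irf5 (-0.37 ± 0.04) fell, and the other 5 did not pass. At equal sums 2 rose and 2 fell.

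Among cytokine signalling genes 7 of 21 rose and 3 fell, a split that became 12 and 1 at equal sums and 5 and 5 with the transcript length trend removed. The rises were led by the feedback inhibitors Socs3, from 44.0 and 44.1 FPKM to 97.6 and 96.7 (1.12 ± 0.05, adjusted p = 1.19e-06), and Socs1, from 30.1 and 30.2 FPKM to 52.0 and 50.6 (0.75 ± 0.06, adjusted p = 4.68e-05), and by Stat5a (0.52 ± 0.05). Jak2 is listed at 0 in agonist library 1, a zero treated as missing, so its rise from 100.6 and 99.7 FPKM to 153 in agonist library 2 (0.61 ± 0.03, adjusted p = 4.68e-06) has a single library behind it, and with the zero kept the value was -0.38. Of 21 receptors for GM-CSF, IL-4 and other factors 3 rose and 6 fell, turning to 5 and 3 at equal sums. Tnfrsf1b, TNF receptor 2, rose from 313 and 312 FPKM to 549 and 544 (0.81 ± 0.03, adjusted p = 7.58e-07), and the GM-CSF receptor chain Csf2rb fell from 546 and 546 FPKM to 462 and 461 (-0.24 ± 0.03, adjusted p = 0.000356).

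Immediate early transcription factors, which peak within the first hours after a stimulus, were balanced at 24 h, 5 higher and 5 lower of 23, or 8 and 4 at equal sums. Fos was among the largest falls of all, from 27.4 and 26.3 FPKM to 14.9 and 14.8 (-0.81 ± 0.09, adjusted p = 0.000233), and Jun fell less (-0.23 ± 0.04), whereas Maff (0.57 ± 0.11, adjusted p = 0.00364), Ier3 (0.41 ± 0.04) and Egr1 (0.30 ± 0.07, adjusted p = 0.0107) rose and Junb did not pass (0.00 ± 0.04).

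Of 14 inflammasome genes 6 rose, Il1b among them, and 3 fell. The sensor Nlrp3 went from 3.70 and 3.38 FPKM to 8.17 and 8.09 (1.01 ± 0.06, adjusted p = 4.68e-06), and the inflammatory caspases Casp4 (0.40 ± 0.04) and Casp1 (0.15 ± 0.04, not called by limma without trend or robust, adjusted p = 0.0503) rose. The adaptor Pycard, ASC, fell from 40.3 and 39.4 FPKM to 23.4 and 24.3 (-0.72 ± 0.04, adjusted p = 5.74e-06), as did the pore-forming Gsdmd (-0.37 ± 0.04, adjusted p = 0.000103). Il18, processed like Il1b, did not pass (-0.16 ± 0.10, adjusted p = 0.238).

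Of 12 lipid mediator enzymes 4 rose and 6 fell. Ptgs2, cyclooxygenase 2, went from 42.0 and 41.9 FPKM to 125 and 124 (1.54 ± 0.30, adjusted p = 0.0159), and Ptges, which makes prostaglandin E2 from its product, went from 56.7 and 58.0 FPKM to 135 and 136 (1.22 ± 0.08, adjusted p = 1.39e-05). Ptgs1, the constitutive cyclooxygenase, fell from 14.99 and 14.9 FPKM to 8.26 and 8.55 (-0.76 ± 0.07, adjusted p = 5.63e-05). Of the leukotriene branch, Alox5 (-0.43 ± 0.07), Alox5ap (-0.46 ± 0.05, adjusted p = 0.000109) and Ltc4s (-0.49 ± 0.07) fell, as did the leukotriene B4 receptor Ltb4r1, from 9.31 and 9.91 FPKM to 4.28 and 5.51 (-0.85 ± 0.10, adjusted p = 0.000233).

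Among immune enzymes 6 of 13 rose and 2 fell. Nos2, the inducible nitric oxide synthase, went from 265 and 259 FPKM to 379 and 380.1 (0.53 ± 0.06, adjusted p = 0.000119), the arginine transporter Slc7a2 from 172 and 171 FPKM to 293 and 293 (0.77 ± 0.04, adjusted p = 1.96e-06) and Arg2 (0.48 ± 0.05). Arg1, the arginase of alternative activation, fell at a low level, from 1.61 and 1.48 FPKM to 0.589 and 0.334 (-0.80 ± 0.10, adjusted p = 0.0003). IL-4 response genes had 3 rises and 8 falls of 18, or 5 and 5 at equal sums. The mannose receptor Mrc1 fell from 10.4 and 10.96 FPKM to 5.79 and 6.37 (-0.72 ± 0.06, adjusted p = 4.27e-05), while Tgm2 rose from 14.01 and 13.2 FPKM to 19.9 and 20.4 (0.54 ± 0.05, adjusted p = 4.2e-05).

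Several pattern receptors and uptake genes were among the largest falls. Of scavenger and lectin receptors 4 of 20 rose and 10 fell (median -0.18). Clec7a, Dectin-1, the β-glucan receptor, went from 471 and 471 FPKM to 265 and 267 (-0.82 ± 0.06, adjusted p = 2.38e-05). Clec4e, Mincle, a lectin of the same class, went the other way, from 543 and 547 FPKM to 959 and 966 (0.82 ± 0.07, adjusted p = 6.34e-05). The inhibitory receptors Cd300lf (-0.76 ± 0.05, adjusted p = 5.62e-06) and Cd300a (-0.61 ± 0.07), the lipid receptor Trem2 (-0.47 ± 0.05) and Cd93 (-0.82 ± 0.07) fell. The scavenger receptor Marco, at 245 and 247 and then 264 and 264 FPKM, did not pass (0.10 ± 0.06, adjusted p = 0.175).

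Of 7 Fcγ receptor genes 5 fell and 2 rose. Fcgr1, the high-affinity receptor for IgG, went from 26.5 and 26.6 FPKM to 14.4 and 15.4 (-0.80 ± 0.11, adjusted p = 0.000551), and Fcgr3 (-0.33 ± 0.04) and Fcgr4 (-0.33 ± 0.07), which also activate, fell less. The inhibitory Fcgr2b rose, from 465 and 466 FPKM to 535 and 527 (0.19 ± 0.03, adjusted p = 0.00181), as did the kinase Syk (0.37 ± 0.03). Among complement genes C1qb (-0.49 ± 0.10, adjusted p = 0.00452), C1qc (-0.27 ± 0.08, not called at equal sums) and Cfp (-0.20 ± 0.03) fell and none rose, of 12, although at equal sums 2 rose and 2 fell. These C1q chains were scarce here, C1qb at 11.8 and 11.6 FPKM with vehicle.

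Genes of lipid uptake and storage fell, 10 of 18 against 1 rise (median -0.23). The fatty acid binding protein Fabp5 went from 757 and 762 FPKM to 486 and 481 (-0.65 ± 0.03, adjusted p = 1.96e-06) and Fabp4 from 17.6 and 17.4 FPKM to 10.6 and 7.81 (-0.86 ± 0.08, adjusted p = 6.4e-05), and the lipid droplet protein Plin2 fell from 339 and 333 FPKM to 247 and 252 (-0.43 ± 0.04, adjusted p = 9.82e-05). Dgat2, which makes triglyceride, was the riser (0.44 ± 0.07, adjusted p = 0.000801). In adenosine production Nt5e, CD73, fell from 8.504 and 8.09 FPKM to 4.02 and 3.90 (-0.91 ± 0.09, adjusted p = 0.000101) and Entpd1, CD39, fell from 20.5 and 21.0 FPKM to 13.1 and 12.8 (-0.64 ± 0.07, adjusted p = 0.000189), while the adenosine receptor Adora2a rose (0.66 ± 0.05, adjusted p = 1.75e-05). The 16 purine genes had 1 rise and 7 falls. Sterol synthesis genes had 2 rises and 7 falls (11 when centred) of 22, the largest fall being Dhcr7 (-0.61 ± 0.07, adjusted p = 0.000234).

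**Figure D2:**
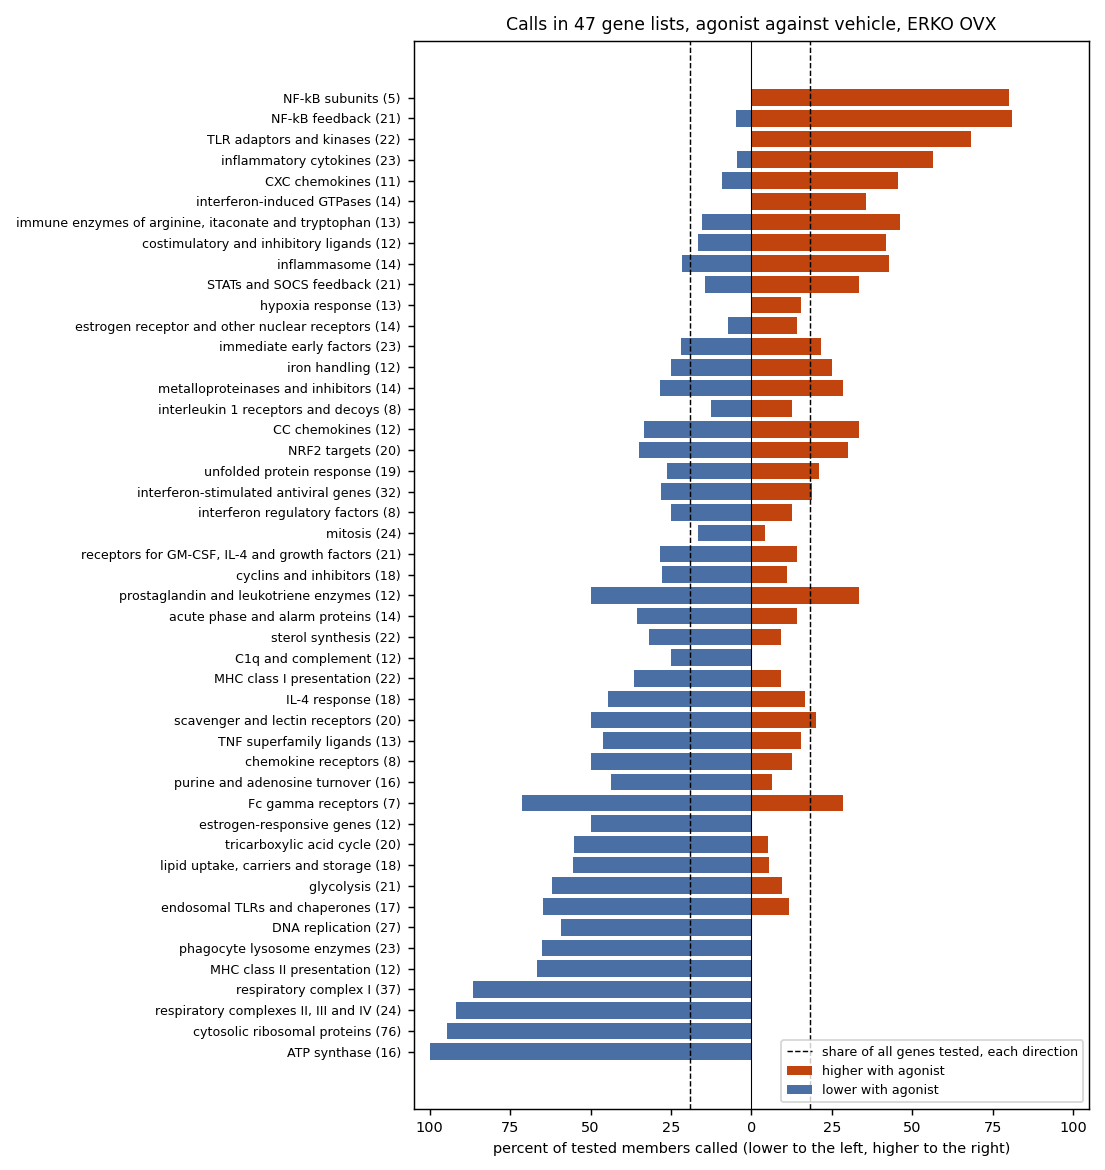
Share of tested members called higher (right) or lower (left) with agonist in 47 gene lists, with the number tested in brackets and dashed lines at the shares over all genes tested, 18.3% and 19.2%. NF-kB feedback has 17 of 21 members higher, and all 16 ATP synthase members are lower.

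Genes of respiration and the ribosome were lower by small steps. Of respiratory complex I 32 of 37 fell (median -0.26), of complexes II to IV 22 of 24 (-0.20), of ATP synthase 16 of 16 (-0.25) and of cytosolic ribosomal proteins 72 of 76 (-0.27), and no member of these 4 lists rose. Examples are Ndufs7, from 109.9 and 108 FPKM to 84.3 and 80.3 (-0.40 ± 0.06, adjusted p = 0.00074), Sdhd of complex II (-0.32 ± 0.03), Uqcr11 of complex III (-0.44 ± 0.04), Atp5e (-0.34 ± 0.03) and Rplp1, from 2048 and 2060 FPKM to 1601 and 1606 (-0.36 ± 0.03, adjusted p = 4.9e-05). Ribosomal protein genes have many pseudogene copies that can share their reads, so single values are uncertain. Scaled to equal sums, the falls numbered 24, 16, 13 and 70.

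These lists hold short transcripts, and in this arm the response ran with transcript length. The median log2 fold change was -0.16 in 455 genes under 750 bases and 0.10 in 844 genes of 6000 bases or more, and 41.8% of the shortest class fell against 7.11% of the longest. In KO the medians of these classes were -0.02 and 0.01, in WT 0.02 and 0.05, and in Ex3a OVX 0.06 and -0.04. Within the shortest class ribosomal protein genes had a median of -0.29, respiratory genes -0.25 and the other 379 genes -0.12. With the length trend removed, an alternative chosen after the data were seen, the falls numbered 17 of 37, 12 of 24, 11 of 16 and 62 of 76, with medians of -0.14, -0.10, -0.15 and -0.14. The part of length in the falls was not tested further.

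**Figure D3:**
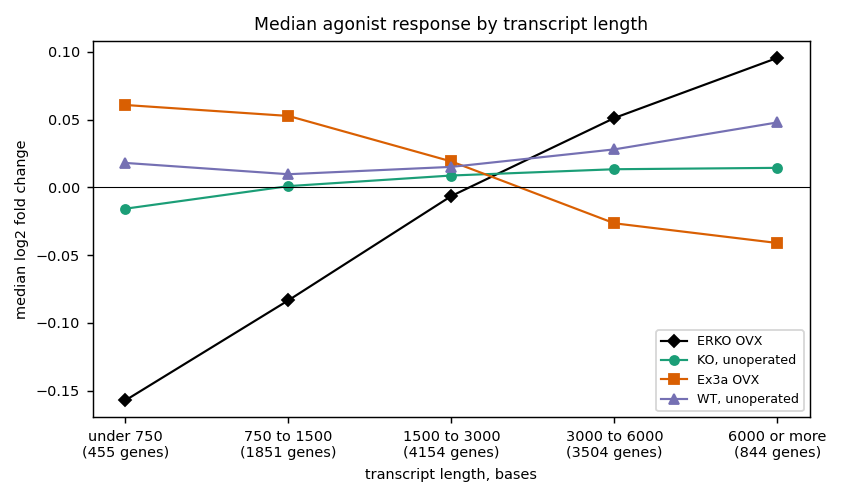
Median log2 fold change (agonist over vehicle, FPKM + 1) in 5 classes of transcript length, 1 line per arm, with the number of genes per class. The ERKO OVX line rises from -0.16 in the shortest class to 0.10 in the longest, and the Ex3a OVX line runs from 0.06 to -0.04.

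Glycolysis genes are longer and fell as well, 13 of 21 with 2 rises, and the count of falls was 13 also at equal sums and with the length trend removed. The lactate exporter Slc16a3 went from 179 and 173 FPKM to 125 and 120.2 (-0.52 ± 0.03, adjusted p = 6.45e-06) and Pkm, pyruvate kinase, from 1236 and 1240 FPKM to 919 and 923 (-0.43 ± 0.03, adjusted p = 1.75e-05). Ldha (-0.35 ± 0.04) and Gapdh (-0.26 ± 0.04) fell less. The regulated entry enzymes Hk2 (0.38 ± 0.05, adjusted p = 0.000312) and Pfkfb3 (0.24 ± 0.04) rose. Tricarboxylic acid cycle genes had 11 falls and 1 rise of 20, the largest fall being Idh1 (-0.39 ± 0.04, adjusted p = 6.47e-05). Of 13 hypoxia genes 2 rose, Ndrg1 (0.51 ± 0.06, adjusted p = 0.00032) and P4ha2 (0.31 ± 0.10), and none fell. The call on P4ha2 ended without agonist library 1 (adjusted p = 0.0824) or vehicle library 2 (0.102), and the list had 2 falls without agonist library 2 or vehicle library 1.

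Of DNA replication genes 16 of 27 fell and none rose (median -0.27). Pcna, the polymerase clamp, went from 203 and 204 FPKM to 149.7 and 150.4 (-0.44 ± 0.04, adjusted p = 5.14e-05), and Gins1 (-0.55 ± 0.10) and Mcm2 (-0.41 ± 0.09) fell by like amounts. With the length trend removed 16 fell again. Mitosis genes moved little, 1 rise and 4 falls of 24: Mki67 rose from 7.23 and 7.32 FPKM to 10.3 and 10.1 (0.44 ± 0.05, adjusted p = 0.000163), Cenpa fell (-0.52 ± 0.06, adjusted p = 0.000162), and Top2a did not pass (-0.01 ± 0.08). Among cyclins and inhibitors Ccnd1 fell from 2.81 and 2.71 FPKM to 1.90 and 1.74 (-0.41 ± 0.07, adjusted p = 0.00144), Ccnd3 (-0.36 ± 0.04) and the inhibitors Cdkn2a (-0.45 ± 0.06) and Cdkn1c (-0.55 ± 0.12, adjusted p = 0.00667, not called at equal sums or with 0.1 FPKM added) fell too, Gadd45a rose (0.43 ± 0.05, adjusted p = 0.000206), and Cdkn1a did not pass (-0.04 ± 0.05).

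NRF2 targets had 6 rises and 7 falls of 20, or 7 and 3 at equal sums and 6 and 5 with the length trend removed. The autophagy receptor Sqstm1 rose from 649.9 and 642 FPKM to 942 and 944 (0.55 ± 0.03, adjusted p = 3.09e-06), with the cystine importer Slc7a11 (0.54 ± 0.04, adjusted p = 1.47e-05) and Txnrd1 (0.42 ± 0.04), and the pentose phosphate enzyme Tkt fell (-0.33 ± 0.03, adjusted p = 5.63e-05). Of 19 unfolded protein response genes 4 rose and 5 fell (21.1% and 26.3%, beside 18.3% and 19.2% of all genes tested), or 6 and 2 at equal sums. The rises were the amino acid response genes Asns (0.64 ± 0.09, adjusted p = 0.000461), Phgdh (0.56 ± 0.06) and Atf4 (0.26 ± 0.03) with Herpud1 (0.24 ± 0.04), and the chaperone Hspa5 did not pass (0.06 ± 0.03). Phagocyte lysosome genes fell, 15 of 23 with no rise in this fit (median -0.15), for example the protease Lgmn (-0.31 ± 0.03, adjusted p = 0.000111) and lysozyme Lyz2, from 6320 and 6309 FPKM to 5355 and 5360 (-0.24 ± 0.05, adjusted p = 0.00523). At equal sums 1 rose and 8 fell.

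Of metalloproteinases and their inhibitors 4 rose and 4 fell of 14. The collagenase Mmp13 went from 153 and 154 FPKM to 241 and 241 (0.65 ± 0.05, adjusted p = 1.57e-05) and Mmp14 (0.45 ± 0.04) rose less, while Mmp19 went from 119.9 and 121 FPKM to 73.8 and 73.6 (-0.70 ± 0.06, adjusted p = 4e-05) and the inhibitor Timp2 fell (-0.58 ± 0.06, adjusted p = 9.91e-05). Lox, lysyl oxidase, rose from 66.9 and 67.5 FPKM to 142 and 142 (1.07 ± 0.07, adjusted p = 1.08e-05). In iron handling, the endosomal importer Slc11a2 rose (0.37 ± 0.04, adjusted p = 0.000136), and the exporter Slc40a1, ferroportin, fell (-0.36 ± 0.05, adjusted p = 0.000441). Of 14 acute phase and alarm genes 2 rose, Ptx3 (0.52 ± 0.09, adjusted p = 0.00242) and Cp (0.24 ± 0.06), and 5 fell, among them S100a4 (-0.42 ± 0.03, adjusted p = 1.84e-05). Saa3, at 5015 and 5040 FPKM with vehicle, and Lcn2, at 1085 and 1090, did not pass (0.16 ± 0.08 and 0.21 ± 0.12). Without WT vehicle library 1 or 2 both passed at the same values (adjusted p = 0.00812 and 0.00811 for Saa3, 0.0245 and 0.0244 for Lcn2), and the list had 4 rises and 4 falls.

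Of 14 nuclear receptors Ppard (0.39 ± 0.05, adjusted p = 0.000296) and the glucocorticoid receptor Nr3c1 (0.26 ± 0.05, adjusted p = 0.00205) rose and the vitamin D receptor Vdr fell (-0.28 ± 0.04, adjusted p = 0.0011). With log values centred, or without agonist library 1, vehicle library 2 or either WT vehicle library, 2 rose and 2 fell. No gene of 12 on a list of estrogen-responsive genes rose and 6 fell (median -0.22). They included Igf1, from 48.6 and 48.3 FPKM to 32.8 and 34.6 (-0.51 ± 0.05, adjusted p = 0.000105), Ramp3 (-0.34 ± 0.06, adjusted p = 0.00156), Igfbp4 (-0.28 ± 0.04, adjusted p = 0.00109) and Ccnd1. The median response of this list was -0.24 in KO, -0.26 in WT and -0.10 in Ex3a OVX, so its falls were not particular to ERKO OVX. All 4 ERKO OVX libraries came from mice with the same estradiol pellet, so their values compare agonist with vehicle and not estradiol with its absence.

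The remaining genes called beyond 1.5-fold have various roles. Cemip, a hyaluronan-binding protein, went from 1.74 and 1.76 FPKM to 6.46 and 6.49 (1.44 ± 0.09, adjusted p = 9.61e-06), Slc1a2, a glutamate transporter, from 6.39 and 6.59 FPKM to 15.7 and 16.9 (1.21 ± 0.06, adjusted p = 3.41e-06), and Pim2, a survival kinase, from 6.05 and 6.13 FPKM to 15.8 and 15.3 (1.23 ± 0.09, adjusted p = 2.21e-05). Acpp, an acid phosphatase, rose from 136 and 130.3 FPKM to 302 and 302 (1.18 ± 0.04), and Ppap2a, a lipid phosphatase, from 27.2 and 27.1 FPKM to 63.4 and 61.3 (1.17 ± 0.06). Hcar2, the receptor for β-hydroxybutyrate and niacin, rose (1.05 ± 0.06), as did Slco3a1 (0.97 ± 0.05), Cd38 (0.92 ± 0.05), Phlda1 (0.97 ± 0.06), Ntng2 (1.05 ± 0.06), Rhoq (0.99 ± 0.05) and 6530402F18Rik (1.16 ± 0.05), 7 genes named because they passed this test and not by the rule for named genes. Among the 25 largest falls not yet named were Mgst2 (-0.81 ± 0.04), Rgs2, a brake on G protein signalling (-0.77 ± 0.05), G0s2, an inhibitor of fat breakdown (-0.80 ± 0.09), Cd200r1, an inhibitory receptor (-0.76 ± 0.10), Gcnt1 (-0.75 ± 0.09), Itgb5 (-0.75 ± 0.05), Hip1 (-0.75 ± 0.05), Steap3 (-0.74 ± 0.06), Tmem40 (-0.82 ± 0.12), Ifitm6 (-0.82 ± 0.22, not called with no filter on low values), Tbc1d2 (-0.79 ± 0.05), Rcbtb2 (-0.79 ± 0.05) and Tmem37 (-0.78 ± 0.08). Fabp3 (1.09 ± 0.28, adjusted p = 0.0265, or 0.0635 with 0.1 FPKM added) and Hivep3 (1.09 ± 0.10, adjusted p = 4.9e-05) completed the 25 largest rises.

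Set against the same agonists in KO, the unoperated arm with the same source allele, the main inflammatory rises were smaller. The difference of the 2 responses passed the test in 2700 genes, 23.8% of 11345 tested, 1289 more positive and 1411 more negative in ERKO OVX, and beyond 1.5-fold in 5 and 48 (0.0441% and 0.423%). At equal sums the split was 2461 and 779, and with log values centred on each library's median 1003 and 1789. The 29 rises beyond 1.5-fold, chosen on the ERKO OVX response, had a median of 1.16 here and 1.85 in KO, and the difference passed in 25, smaller here in 24 and larger in Zc3h12c alone (0.46 ± 0.05, adjusted p = 0.000283). Surgery, pellet and library set differ together between these arms and cannot be told apart.

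The vehicle libraries of ERKO OVX already stood higher than those of KO in 26 of these 29 genes, with a median ratio of 2.89, and the agonist libraries in 23, with a median ratio of 1.51. These ratios are of FPKM as deposited, and the share over all genes was not computed. FPKM sums were 652417 and 649892 in the ERKO OVX vehicle libraries and 481738 and 487852 in those of KO. With agonist they were 613251 and 612322 against 486685 and 487575, so ratios at equal sums would be lower. Il1b, outside these 29, also stood higher with vehicle: KO went from 113 and 108 FPKM to 1111 and 1078 (3.30), ERKO OVX from 912 and 908 to 2293 and 2305, and the responses differed by -1.96 ± 0.26, adjusted p = 0.0069. Tnf in KO went from 15.4 and 14.6 to 175 and 153 FPKM, and the difference of responses was -1.71 ± 0.36, adjusted p = 0.0322. Without any 1 of the 4 KO libraries the adjusted p of that difference was 0.0715 to 0.0918, and without WT agonist library 1 or 2 it was 0.0762. Saa3, an acute phase protein, went from 63.7 and 63.2 to 635 and 645 FPKM in KO but was above 5000 in all 4 ERKO OVX libraries (-3.15 ± 0.10, adjusted p = 8.61e-07). Lcn2 was alike, 15.8 and 14.6 to 119.5 and 126 FPKM in KO (-2.73 ± 0.15, adjusted p = 6.09e-05). Vehicle libraries of Ex3a OVX also stood above those of KO in these genes. Saa3 was there at 4022 and 4009 FPKM, Lcn2 at 603 and 594, Il1b at 365 and 367 and Tnf at 90.4 and 93.1. Il12b did not share this, at 44.8 and 44.9 FPKM in Ex3a OVX vehicle against 81.7 and 80.6 in KO.

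**Figure D4:**
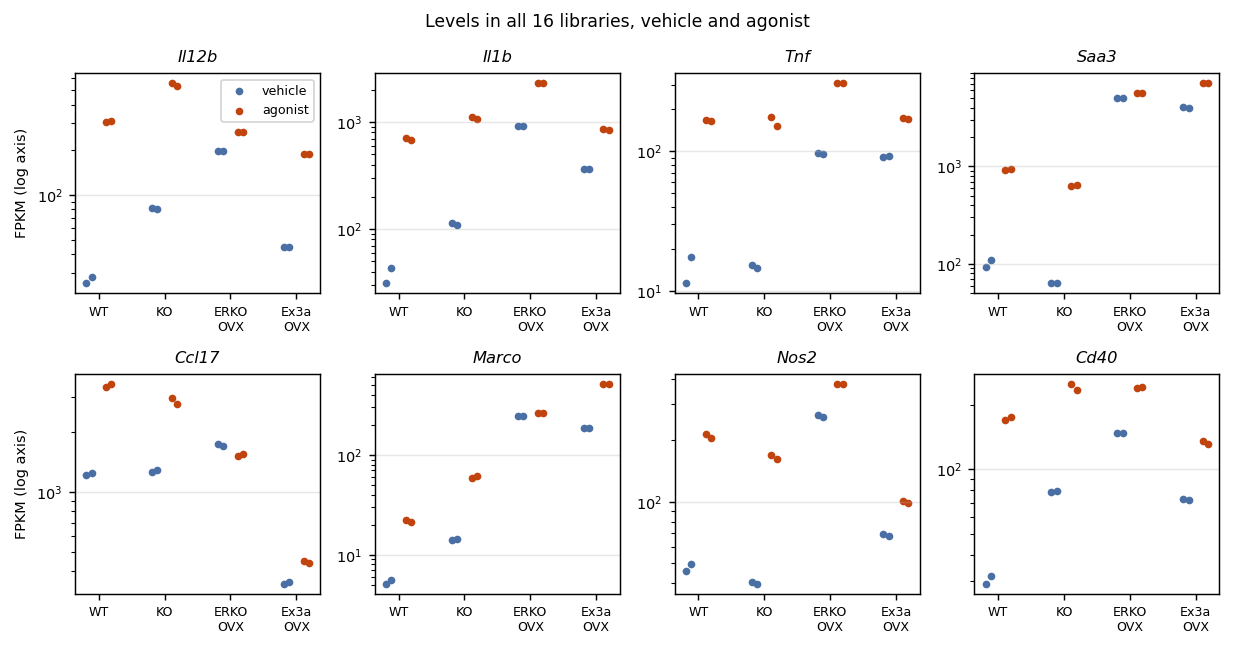
FPKM on a log axis in all 16 libraries for 8 genes, with blue points for vehicle and red for agonist. In ERKO OVX the vehicle points lie nearer the agonist points than in KO or WT, as for Il12b at 196 and 196 with vehicle and 262 and 261 with agonist against 81.7 and 80.6 and 555 and 532 in KO.

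Il12b, Ptgs2, Lox, Ccl3, Ccl4 and Marco followed. Il12b rose by 2.73 in KO (-2.32 ± 0.07, adjusted p = 3.01e-07), Ptgs2 by 4.13 (-2.59 ± 0.37, adjusted p = 0.00956) and Ccl3 by 3.81 (-1.94 ± 0.10, adjusted p = 6.29e-06). The response of Lox differed by -2.08 ± 0.09, adjusted p = 1.08e-06, of Ccl4 by -1.83 ± 0.19, adjusted p = 0.00138 and of Marco by -1.90 ± 0.07, adjusted p = 7.15e-07. Of the 12 costimulatory and inhibitory ligands 8 had a more negative response than in KO and none a more positive one, among them Cd86 (-0.86 ± 0.05, adjusted p = 1.07e-05), Cd80 (-0.86 ± 0.05, adjusted p = 5.88e-06) and Cd40 (-0.90 ± 0.07, adjusted p = 4.51e-05). Ccl17 rose by 1.17 in KO (-1.33 ± 0.06, adjusted p = 1.08e-06) and Cd70 by 1.30 (-1.73 ± 0.09, adjusted p = 4.02e-06), where both fell in ERKO OVX. In contrast, the responses of Pim2 (-0.01 ± 0.11, adjusted p = 0.965) and Nlrp3 (-0.19 ± 0.07, adjusted p = 0.078) did not pass as different, though that of Nlrp3 passed without vehicle library 2 (-0.24, adjusted p = 0.0334) and under 5 other alternatives. For Csf3, which went from 0.22 and 0.184 to 5.47 and 3.76 FPKM in KO, the answer turned on the amount added before the logarithm. The difference was -0.25 ± 0.20, adjusted p = 0.409, with 1 FPKM added and -1.64, adjusted p = 0.00372, with 0.1 FPKM added, and it also passed without KO agonist library 2 (-0.47, adjusted p = 0.0198).

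Genes with more positive responses than in KO included 5 that fell there and had a smaller value in the same direction in ERKO OVX. Mmp19 fell by 1.96 in KO (1.26 ± 0.07, adjusted p = 6.1e-06), Slc40a1 by 1.11 (0.75 ± 0.06, adjusted p = 4.5e-05), Zfp36l2 by 1.02 (0.79 ± 0.09, adjusted p = 0.000393), Ccdc80 by 1.29 (0.88 ± 0.11, adjusted p = 0.000519) and Slamf8 by 0.98 (0.84 ± 0.08, adjusted p = 0.000159). Of 27 DNA replication genes 17 had a more positive and 1 a more negative response than in KO, whose median was -0.56. The growth factor Pdgfb (0.77 ± 0.07, adjusted p = 9.66e-05), the kinase gene Map4k4 (0.78 ± 0.04, adjusted p = 3.81e-06) and Kctd12 (0.75 ± 0.05, adjusted p = 2.72e-05) rose here and fell in KO, and the response of Gadd45g differed by 1.02 ± 0.13, adjusted p = 0.000612. Rnaset2a also differed (1.26 ± 0.16, adjusted p = 0.00104), but it has a near-identical copy and its value is uncertain. In the other direction, 73 of 76 ribosomal protein genes and 23 of 37 complex I genes had a more negative response than in KO, with the length values given above beside them.

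Ex3a OVX shares surgery and pellet with ERKO OVX. There the responses differed in 3551 genes, 31.3% of 11346, 1664 more positive and 1887 more negative in ERKO OVX (14.7% and 16.6%), and beyond 1.5-fold in 11 and 14 (0.097% and 0.123%). Scaling to equal sums moved the median gene by 0.12 and the split to 3083 and 845. In Ex3a OVX the FPKM sums were 659985 and 657791 with vehicle and 696321 and 692566 with agonist. Those of ERKO OVX went from 652417 and 649892 to 613251 and 612322. Of the 29 rises beyond 1.5-fold, whose median was 0.76 in Ex3a OVX, the difference passed in 24. They were chosen for a large rise in ERKO OVX, which favours a larger value there, so the split only describes them, beside that of all genes given above. It was larger in ERKO OVX in 21 and smaller in Pim2 (-0.94 ± 0.13, adjusted p = 0.00092), Acpp (-0.36 ± 0.06, adjusted p = 0.00159) and Lox (-0.67 ± 0.10, adjusted p = 0.00132).

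**Figure D5:**
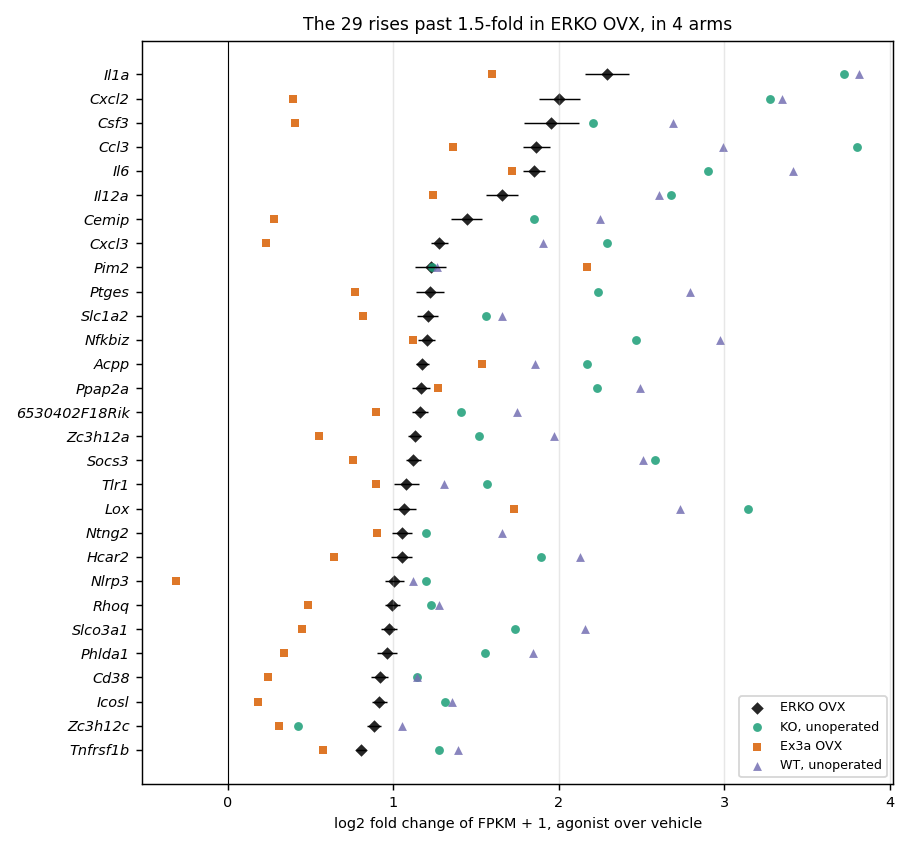
Log2 fold change (agonist over vehicle, FPKM + 1) of the 29 genes called beyond 1.5-fold in ERKO OVX, in each of the 4 arms, with standard errors for ERKO OVX. Most KO and WT points lie to the right of the ERKO OVX points (medians 1.85 and 1.97 against 1.16) and most Ex3a OVX points to the left (median 0.76).

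Cxcl2 was the gene with the largest more positive response among those named by the rule. Cxcl2 in Ex3a OVX went from 71.7 and 67.5 FPKM to 90.6 and 92.9 (0.39), a difference of 1.61 ± 0.17, adjusted p = 0.000958. Csf3 differed by 1.55 ± 0.24, adjusted p = 0.00152, Cxcl3 by 1.05 ± 0.07, adjusted p = 4.67e-05 and Cxcl1 by 1.19 ± 0.32, adjusted p = 0.0471. The call on Cxcl1 ended without vehicle library 2, Ex3a OVX agonist library 1, any KO library or either WT agonist library, with adjusted p up to 0.097. Nlrp3 fell in Ex3a OVX from 4.89 and 4.61 to 3.72 and 3.56 FPKM (1.32 ± 0.08, adjusted p = 3.36e-05). By contrast, the responses of Il6 (0.14 ± 0.10, adjusted p = 0.304), Il1b (0.12 ± 0.29, adjusted p = 0.796) and Nfkbiz (0.08 ± 0.07, adjusted p = 0.421) did not pass as different. Cemip (1.16 ± 0.13, adjusted p = 0.000347) and the long transcripts Hivep3 (1.19 ± 0.14, adjusted p = 0.000335), Pan3 (1.19 ± 0.08, adjusted p = 4.01e-05), Dpysl2 (1.13 ± 0.09, adjusted p = 8.04e-05), Neat1 (1.05 ± 0.12, adjusted p = 0.000427) and Xist (1.22 ± 0.11, adjusted p = 0.000132) were also more positive, and each of these 6 passed with the length trend removed as well. Mmp13 (1.05 ± 0.06, adjusted p = 3.36e-05) and Tgm2 (1.05 ± 0.06, adjusted p = 3.36e-05) rose here and fell in Ex3a OVX.

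Among genes with a mean of 5 FPKM or more, the response most negative relative to Ex3a OVX was that of Il12b, which there went from 44.8 and 44.9 to 187 and 186 FPKM (-1.62 ± 0.08, adjusted p = 1.66e-05). Marco differed by -1.36 ± 0.08, adjusted p = 3.36e-05, the pantetheinase Vnn3 by -1.09 ± 0.11, adjusted p = 0.000208, the kinase C gene Prkcb by -1.32 ± 0.08, adjusted p = 3.36e-05 and the glutathione transferase Gsta2 by -1.07 ± 0.24, adjusted p = 0.00917. Cnn2 (-1.04 ± 0.05, adjusted p = 2.11e-05), Cdkn1c (-1.07 ± 0.17, adjusted p = 0.0018, or 0.113 with 0.1 FPKM added) and Slamf9 (-1.17 ± 0.11, adjusted p = 0.000155) fell here and rose there, as did Igfbp4 (-0.91 ± 0.06, adjusted p = 4.65e-05) and Ramp3 (-0.79 ± 0.08, adjusted p = 0.000204). The last 2 are on the list of estrogen-responsive genes, which as a whole was balanced. Of its 12 tested members 3 had a more positive and 3 a more negative response than in Ex3a OVX (median difference 0.02). Il10, too scarce for that minimum, rose by 2.38 in Ex3a OVX (-1.85 ± 0.19, adjusted p = 0.000208). H2-Q7 also differed (-1.37 ± 0.16, adjusted p = 0.000519), by -0.59 without agonist library 2 and -3.23 without agonist library 1 (not called with 16 separate libraries, adjusted p = 0.135), as did Rnaset2a (-1.49 ± 0.19, adjusted p = 0.000849), with the near-identical copy named above.

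Against WT, 1385 responses were more positive and 1858 more negative (12.2% and 16.4% of 11346), beyond 1.5-fold 21 and 102 (0.185% and 0.899%), or 4007 and 785 at equal sums, where the median gene moved by 0.15. Of the 29 rises beyond 1.5-fold 26 were smaller than in WT and none larger, and WT had a median of 1.97. ERKO OVX and WT differ in source allele, surgery, pellet and library set together, and these cannot be told apart. Il1b rose by 4.21 in WT (-2.88 ± 0.26, adjusted p = 0.00142), Il12b by 3.47 (-3.06 ± 0.07, adjusted p = 2.16e-08) and Il6 by 3.42 (-1.56 ± 0.08, adjusted p = 2.03e-06). The monocyte attractants went the other way, since Ccl2 in WT stood at 295 and 299 and then 315 and 297 FPKM and Ccl7 at 74.0 and 70.04 and 59.3 and 55.8, and their responses were more positive in ERKO OVX (0.56 ± 0.05, adjusted p = 4.98e-05 and 1.11 ± 0.07, adjusted p = 5.66e-06).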

How the data were processed

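RNA-seq of 16 libraries, 2 in each of 8 groups, was analysed. The authors deposited one table of FPKM (mapped fragments scaled to transcript length and library size) for 24001 gene rows. Which program computed FPKM was not given in the sources used here. Per the submitters' processing notes cutadapt, FastQC, STAR, HTSeq, DESeq2 and the mm10 build were used, with no versions. FPKM sums differ between libraries, and the spacing of low values gave the depth estimates.

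Rows of small RNA genes (1238), which polyadenylated libraries measure poorly, were set aside. In genes at 5 FPKM or more wherever they were above 0, 6 zeros, called isolated here, were treated as missing. Among them Ccl22 was at 0 in both KO agonist libraries, so its response in KO was not tested. Genes with at least 1 FPKM in 2 libraries were tested on log2(FPKM + 1) with limma 3.58.1 in R 4.3.3 (trend, robust), with Benjamini-Hochberg adjusted p under 0.05 and treat at 1.5-fold. Fold changes on this scale understate changes of low genes. Each ovariectomized pair was averaged, since these pairs differed by about counting noise (at most 1.545 times its variance, in Ex3a OVX vehicle). This left 12 samples, so these groups are assumed to vary like the unoperated ones. Differences of response were interaction contrasts.

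Named genes were the 25 largest rises and falls with non-overlapping libraries and a mean of 5 FPKM, the 10 largest differences in each direction against KO and Ex3a OVX, and members of 47 lists, of which a few genes are not reported here. Members and lists were chosen with earlier results of these data known. The model was tested on simulated data. Alternatives changed the offset, filter, scaling, sample set, replicate block and length trend.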

Additional observations from a re-analysis of the deposited data

Results flagged for a closer look

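Some genes responded in opposite directions in 2 arms, with each response called and the difference itself passing limma's interaction test. Against KO, the difference (ERKO OVX minus KO, log2) was -1.33 for Ccl17 and -1.73 for Cd70, which fell in ERKO OVX and rose in KO. It was 0.75 for Kctd12, 0.78 for Map4k4, 0.77 for Pdgfb and 1.26 for Rnaset2a, which rose in ERKO OVX and fell in KO. The fall of Ccl17 in ERKO OVX is among the calls that ended at equal sums of FPKM.

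Against Ex3a OVX, the genes that rose in ERKO OVX and fell in Ex3a OVX were Nlrp3 (1.32), Xist (1.22), Pan3 (1.19), Dpysl2 (1.13), Neat1 (1.05), Mmp13 (1.05) and Tgm2 (1.05). Those that fell in ERKO OVX and rose in Ex3a OVX were H2-Q7 (-1.37), Slamf9 (-1.17), Cdkn1c (-1.07), Cnn2 (-1.04), Igfbp4 (-0.91) and Ramp3 (-0.79). The fall of H2-Q7 in ERKO OVX was not called without agonist library 2 (-0.15, adjusted p = 0.332), and its difference, from -0.59 to -3.23 with 1 library left out, was not called with 16 separate libraries (adjusted p = 0.135). The fall of Cdkn1c and its difference were not called with 0.1 FPKM added (adjusted p = 0.225 and 0.113). Against WT, Ccl7 rose in ERKO OVX and fell in WT (1.11).

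Outside the genes tested, 4 small RNA rows changed more than 2-fold between the ERKO OVX groups. Gm12238 stood at 13.7 and 26.7 FPKM with vehicle and was listed at 0 in both agonist libraries (-4.41 on the log2 of FPKM + 1 scale). Mir8113, listed at 0 with vehicle, stood at 9.62 and 18.9 FPKM with agonist (3.93). Mir8104 was listed above 0 only in agonist library 2, at 9.81 FPKM (2.56), and Snora75 only in agonist library 1, at 25.5 FPKM (3.78). These rows are short, and FPKM turns very few fragments there into high values.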

How the results depend on the processing

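Of 303 values for named genes and differences, 41 changed side of the threshold or direction under at least one alternative, and the others did under none of those run. The sign turned for Ccl17 with the transcript length trend removed, an alternative chosen after the data were seen (0.011, adjusted p = 0.868), and for Jak2 with isolated zeros kept (-0.38, adjusted p = 5.56e-05), where the zero itself is the cause. With no filter on low values the calls on C1qc, Ccl17, Ifitm6, Il10, Nfkbie, P4ha2 and Zfp36l2 ended. With 16 separate libraries B2m, Ccl22, Ccr7, Cd86, Ebi3, Hspa5, Irak1, Lcn2, Marco, Saa3 and Tap1, reported as not passing, passed. With libraries scaled to equal sums, genes numbered 3225 higher and 1353 lower, and responses more positive or more negative numbered 2461 and 779 against KO, 3083 and 845 against Ex3a OVX, and 4007 and 785 against WT. Rises beyond 1.5-fold numbered 19 with no filter, 52 with 16 separate libraries and 55 with the 4 ERKO OVX libraries alone. Falls beyond 1.5-fold numbered 4 with 0.1 FPKM added, 15 with 16 separate libraries, 8 with the 4 libraries alone, and 2 each with a 5 FPKM filter, centring, median-of-ratios factors, the length trend removed and small RNA rows kept. With 16 separate libraries the differences from Ex3a OVX numbered 2651 and 2882. The cause of these shifts was not tested.

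Same-numbered vehicle and agonist libraries shared only a number (correlation of deviations 0.116 in ERKO OVX, 4445 genes). With the replicate number as a block, 2909 rose and 2945 fell, 47 and 9 beyond 1.5-fold, and 2530 responses were more positive than in Ex3a OVX. Leaving out 1 library gave 1933 to 2216 rises, 2046 to 2272 falls, and 28 to 35 rises and 1 to 4 falls beyond 1.5-fold. It gave 919 to 1386 more positive and 1162 to 1511 more negative responses against KO, 1526 to 1792 and 1754 to 1982 against Ex3a OVX, and 1039 to 1492 and 1532 to 1932 against WT. Depth is lower in the ovariectomized arms, and genes below 1 FPKM in all but 1 of the 16 libraries or in all of them were not tested.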
